A study of Arabidopsis thaliana with 13 samples.

Results

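Root transcript levels were compared between 2 wild-type accessions of Arabidopsis thaliana, Col-0 (3 arrays) and Ler (3 arrays). These are 6 of the 13 arrays of a study on the signalling peptide CLE3 and the receptor kinase CLV1. Samples were assigned to a group by the accession in their titles. Col-0 (Columbia) is the accession of the reference genome, and Ler is Landsberg erecta, which as its name says carries a mutant allele of the receptor kinase gene ERECTA. All plants were 10 days old and had grown at 22 °C, with 16 h of light and 8 h of dark, on MGRL medium with 0.1 mM KNO3, a low nitrate supply, and 1% sucrose. Whole roots were frozen for RNA, and the labels call each array a biological replicate without saying whether replicates came from separate plates or days. The other 7 arrays held roots grown in the same way from the CLE3 overexpression lines 12-1 and 17-3 in Col-0 (2 arrays each) and from the mutant clv1-15 in Ler (3 arrays). They are used below as a second set of arrays on the same pair of backgrounds.

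Accessions of one species differ through sequence changes in genes and promoters, through genes present in one genome and lost from the other, and through regulators that act on many targets. In Arabidopsis the genes of defence compounds, among them glucosinolates, terpenes and phenolics, and the clustered families of immune receptors are known to vary widely between accessions. Roots make such compounds themselves and release some of them into the soil.

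The values are array signals on a linear scale with the same trimmed mean of 500 on every array. Differences are given as Col-0 minus Ler in log2(signal + 16), so that 1 is a doubling in Col-0 and a negative number means a higher signal in Ler. The added 16 makes differences of weak signals look smaller. A probe set passed the test when its adjusted p was under 0.05 in limma, over the 15922 probe sets that were left after the weakest 30% were taken out. Of the probe sets tested, 8727 carry 1 gene, and for 7520 of these the name is only a locus number. The probes of the ATH1 array were designed on Col-0 sequence. A lower transcript level in Ler and weaker binding of a Ler transcript whose sequence differs therefore cannot be told apart here, which bears on every value that is higher in Col-0.

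The arrays of each accession were close to each other. Pearson's r across probe sets was 0.9888 to 0.9934 within Col-0 and 0.989 to 0.9912 within Ler, against 0.9263 to 0.9299 for the 9 pairs of a Col-0 with a Ler array. The first principal component of all 13 arrays held 67.6% of the variance, and that of the 6 wild-type arrays 83.3%. The third Col-0 array had a higher bioD spike-in signal, 3894.3 against 2765.1 and 3091.9 on the other Col-0 arrays and 2846.4 to 3241.1 on the Ler arrays. Without it 6543 probe sets passed in place of 7214. Leaving out any 1 of the 6 wild-type arrays gave 6054 to 6543, so this was the smallest of these drops. The tissue label was checked against markers, of which few have a named probe set. Of 24 root markers 4 were measured (PYK10, NRT2.5, EXPA7 and EXPA18), with a summed signal of 19898.5 to 20738.1 in Col-0 and 20239.9 to 22392.8 in Ler. PYK10 made up most of these sums and was slightly higher in Ler (19611.1 ± 1053.1 against 16515.3 ± 621.5, SD, n = 3). NRT2.5, EXPA7 and EXPA18 were all higher in Col-0, by a log2 of 1.99, 1.07 and 1.29. Of 18 shoot markers 3 were measured (RCA, LHCB4.1 and LHCB4.2), with sums of 805.0 to 857.7 and 960.6 to 1298.5, so that the shoot sum was higher on every Ler array. RCA, Rubisco activase, was higher in Ler (716.7 ± 134.7 against 337.7 ± 26, SD, n = 3), LHCB4.2 was higher in Col-0, and LHCB4.1 did not pass (adjusted p = 0.681).

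In all, 7214 of 15922 probe sets passed, which is 45.3%. Of these, 3332 (20.9%) were higher in Col-0 and 3882 (24.4%) were higher in Ler, and the median difference over all tested probe sets was -0.04. Most differences were small: 6134 of the 7214 were under 2-fold. At 2-fold or more the balance was the other way, with 694 probe sets (4.36%) higher in Col-0 and 386 (2.42%) higher in Ler, 1080 (6.78%) together. More were higher in Col-0 at larger sizes too, with 159 against 58 at 4-fold or more, 71 against 9 at 8-fold or more, and 23 against 6 at 16-fold or more. The arrays of the accessions did not overlap at 8753 probe sets (55%), among them 6967 of the 7214 past the test.

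**Figure D1:**
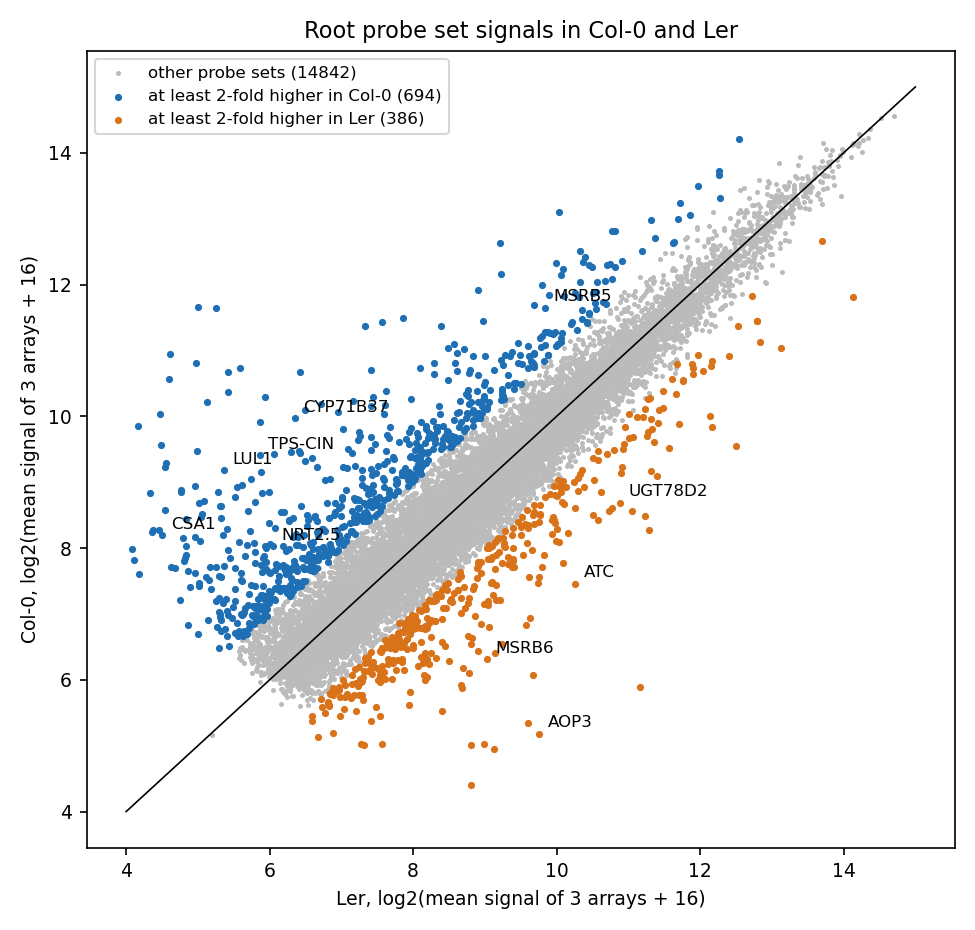
Mean signal of each tested probe set in Ler (x axis) and Col-0 (y axis), both as log2(mean of 3 arrays + 16), with probe sets past the test and at least 2-fold apart in colour. The 694 blue points (higher in Col-0) reach further from the diagonal than the 386 orange points (higher in Ler).

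Larger differences were more frequent at low signals. With the probe sets divided by mean signal into 4 classes of about 3980, 11.3% of the lowest class were at least 2-fold apart, against 6.6%, 5.0% and 4.2% in the next classes. The share that passed the test at any size went the other way, from 40.9% in the lowest class to 47.4% in the highest. Of the 550 probe sets that the array design marks as shared by similar transcripts 9.3% were at least 2-fold apart, against 6.6% of 15353 unique ones.

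The highest difference of a named single gene was at AT5G23830. Its signal was 3149.5, 3126.5 and 3388.3 on the Col-0 arrays and 4.8, 23.5 and 19.4 on the Ler arrays, a difference of 6.72 ± 0.28 (SE, limma adjusted p = 4.75e-11). Every Col-0 array stood above every Ler array, but a lack of overlap was a condition for the 12 highest and 12 lowest genes named here and below. AT5G45500 showed the same picture, with 1914.9, 1944.5 and 1999.9 against 9.5, 11.5 and 4.1 (6.35 ± 0.17). A row of berberine bridge enzyme-like oxidase genes followed. AT1G26380 gave 1293.4, 1459.4 and 1729.7 against 2.7, 17.6 and 4.0 (6.01 ± 0.19). Its neighbour AT1G26390 gave 1479.4, 2082.5 and 1783.8 against 18.4, 12.1 and 16.1 (5.82 ± 0.16). AT1G26410, in the same row, gave 548.3, 663.4 and 535.5 against 2.6, 3.5 and 15.5 (4.73 ± 0.20). On none of the 3 genes did a Ler array exceed 18.4, while the lowest Col-0 array was at 535.5. The extensin-like gene AT1G26240, a short way along the same chromosome, had 1385.8, 1641.4 and 908.6 against 20.9, 30.3 and 29.2 (4.92 ± 0.24). The remaining 6 of the 12 highest were AT3G32030 (5.68), AT2G25450 (5.15), AT5G54040 (5.10), AT3G55790 (5.10), AT3G32040 (4.53) and AT4G01910 (4.51). The probe set of AT3G32030 is of the type marked as shared by similar transcripts.

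The genes higher in Ler were led by AT4G33720 of the pathogenesis-related 1-like family. Its signal was 41.5, 39.2 and 49.7 in Col-0 and 1703.4, 2109.7 and 3002.0 in Ler, a difference of -5.23 ± 0.21 (limma adjusted p = 2.9e-11). AOP3 came next, a dioxygenase that turns methylsulfinyl glucosinolates into hydroxyalkyl glucosinolates. It had 28.6, 3.0 and 29.4 in Col-0 and 852.3, 933.2 and 770.4 in Ler (-4.68 ± 0.33, limma adjusted p = 1.86e-08). ATC, a homologue of the flowering repressor CENTRORADIALIS, had 132.0, 206.9 and 141.2 in Col-0 and 1311.6, 1010.0 and 1306.4 in Ler (-2.81 ± 0.16). The other 9 of the 12 lowest were AT4G31570 (-4.43), AT5G15360 (-4.26), AT1G70080 (-4.19), AT4G19240 (-3.83), AT5G24240 (-3.62), AT1G10875 (-2.94), MSRB6 (-2.75), AT1G50290 (-2.74) and AT1G20380 (-2.73).

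**Figure D2:**
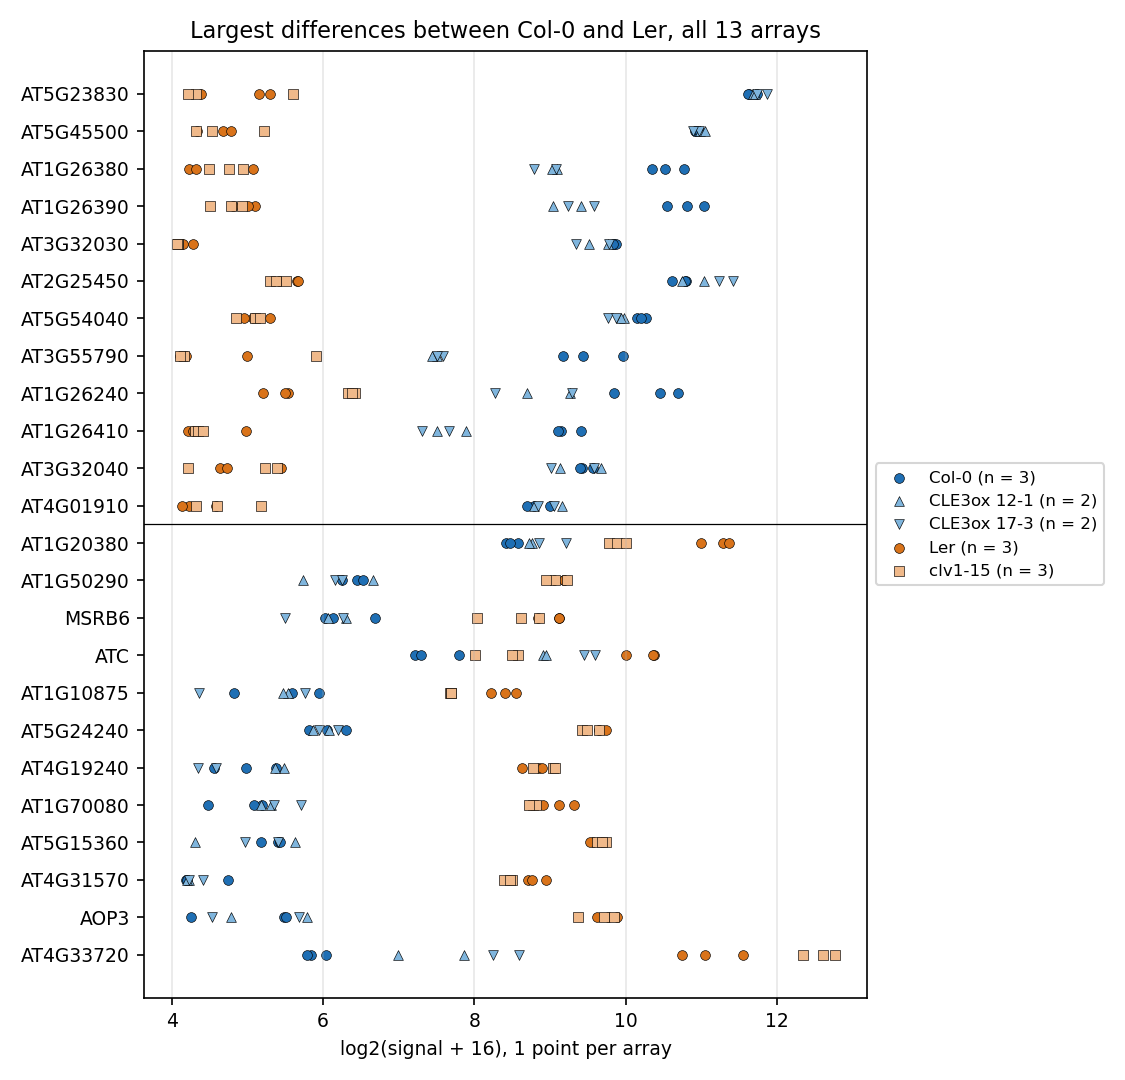
Signals on all 13 arrays, as log2(signal + 16) with 1 point per array, for the 12 single-gene probe sets highest in Col-0 (above the line) and the 12 highest in Ler (below it). Dark symbols are the wild types; light blue symbols (CLE3ox lines) and light orange symbols (clv1-15) lie near the wild type of their own background at most genes; ATC, AT3G55790, AT1G26410 and AT4G33720 are among the exceptions.

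Some transcripts were very low in one accession and well above that in the other. With a mean under 50 in one and at least 500 in the other there were 21 such genes, 17 of them high in Col-0 and 4 high in Ler (AT4G33720, AOP3, AT5G15360 and AT1G70080). Beside the genes above, those high in Col-0 included TPS-CIN, which encodes the terpene synthase that makes cineole. Its signal was 590.1, 686.9 and 717.8 in Col-0 and 44.5, 40.8 and 41.0 in Ler (3.55 ± 0.19). TPS-CIN has a near-identical copy beside it in the Col-0 genome, so this signal may come from either copy. LUL1, a RING-type ubiquitin ligase, had 553.9, 624.3 and 517.4 against 31.5, 19.9 and 24.4 (3.82 ± 0.15). AT3G12900, scopoletin 8-hydroxylase of coumarin synthesis, had 375.4, 560.0 and 600.7 against 46.1, 58.8 and 7.5 (3.44 ± 0.32). The groups did not overlap at any of these 3 genes, which were picked for their far-apart means. CSA1, an immune receptor of the TIR-NBS-LRR class, was outside this rule with 289.4, 284.4 and 258.8 in Col-0 and 6.7, 10.7 and 2.8 in Ler (3.70 ± 0.17).

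The text turns next to gene groups, gathered by gene name after values of these arrays had been seen, so their counts are descriptions. Each count is to be read against the 45.3% of all tested probe sets that passed, and each median against the -0.04 over all of them.

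Among enzymes of defence compounds, cytochrome P450 genes leaned to Col-0. Of 11 tested, 6 were higher in Col-0, 1 was higher in Ler and 4 did not pass, with a median difference of 0.55. CYP71B37 had 964.7, 922.5 and 1081.4 in Col-0 and 62.0, 73.4 and 60.8 in Ler (3.63 ± 0.10). CYP71B26, a few genes away from it, had 577.5, 622.4 and 813.4 against 44.1, 50 and 58.3 (3.35 ± 0.17). The groups did not overlap at either gene, as at 6967 of the 7214 probe sets past the test. CYP71B6, which acts on indole-3-acetonitrile, was also higher in Col-0 (1.29 ± 0.06), as was CYP84A4 (1.15 ± 0.12), which takes part in the synthesis of arabidopyrones. CYP51G2 was higher in Ler (-1.0).

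Flavonoid and phenylpropanoid genes differed in both directions. Of 12 tested, 7 were higher in Col-0 and 3 higher in Ler, with a median of 0.40, and 2 did not pass, UGT78D1 (adjusted p = 0.263) and UGT84A4 (0.686). The 3 higher in Ler were at least 2-fold apart. UGT78D2, which adds glucose to flavonols and anthocyanins at the 3 position, had 457.2, 325.9 and 406.6 in Col-0 and 2239.4, 1806.5 and 1571.4 in Ler (-2.19 ± 0.14). CHIL, a chalcone isomerase-like protein that raises flavonoid output, had 287.7, 150.5 and 213.1 against 591.8, 643.4 and 638.2 (-1.50 ± 0.19). UGT84A3, a glucosyltransferase of hydroxycinnamates, had -1.59 ± 0.13. On none of these genes did a Col-0 array reach the lowest Ler array, but most probe sets past the test lacked overlap (6967 of 7214). The genes higher in Col-0 were CYP84A4 above, AT1G55290 (0.55), UGT72E1, UGT72E2 and UGT72E3 (0.85, 0.51 and 0.76), which glucosylate monolignols and related aldehydes, HCT (0.30) of lignin precursor synthesis, and AT3G13610, feruloyl-CoA hydroxylase F6'H1 of scopoletin synthesis (0.86). With AT3G12900 above, both named steps of the coumarin route were higher in Col-0.

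Of all 31 UGT glycosyltransferase genes tested 13 were higher in Col-0 and 6 in Ler (median 0.14). UGT76C1, which glucosylates cytokinins, was higher in Col-0 (1.37 ± 0.15). So was UGT76B1, which glucosylates isoleucic acid and salicylic acid (1814.6, 1636.0 and 1991.8 against 893.2, 747.7 and 718.9; 1.19 ± 0.10). Of 12 glutathione transferase genes 1 was higher in Col-0 and 5 in Ler. The exception, GSTU21, had 158.0, 243.9 and 178.9 against 25.9, 27.4 and 13.7 (2.45 ± 0.20), while GSTU18 and GSTU20, close family members, were higher in Ler (-0.85 and -0.70).

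ER bodies are compartments of the root endoplasmic reticulum that store beta-glucosidases, and their genes split. All 6 tested passed, 2 higher in Col-0 and 4 higher in Ler. NAI2, a component of the bodies, had 5699.6, 5582.3 and 5197.4 in Col-0 and 3424.4, 3082.7 and 3650.3 in Ler (0.70 ± 0.09). NAI1, the transcription factor that switches on ER body genes, went the other way, with 457.7, 398.7 and 472.8 against 694.8, 858.6 and 755.0 (-0.77 ± 0.13). PYK10, the main beta-glucosidase of the bodies, was only slightly higher in Ler (-0.25, adjusted p = 0.0115). The jacalin lectin genes JAL33 (0.53) and JAL22 (-0.38) were split too. In the BGLU family of beta-glucosidases, 7 of 10 tested genes were higher in Ler and 1 in Col-0. Without the first Col-0 array or the third Ler array 5 of the 10 passed in place of 8. BGLU45, which acts on monolignol glucosides, had the largest of these differences (-1.14 ± 0.16) and BGLU42 was the one higher in Col-0 (0.79 ± 0.08). The cysteine-rich peptide genes LCR68 and LCR69 were both higher in Ler, LCR68 with 6377.4, 6431.8 and 6490.8 against 8675.8, 10077.1 and 10247.4 (-0.58 ± 0.07).

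Methionine sulfoxide reductases return oxidised methionine to its normal form, and a pair of neighbouring genes of this family on chromosome 4 went opposite ways. MSRB5 had 3394.0, 3137.9 and 3061.5 in Col-0 and 850.8, 1052.1 and 800.3 in Ler (1.82 ± 0.09). MSRB6, the next gene, had 49.3, 53.9 and 86.9 in Col-0 and 539.8, 542.4 and 444.7 in Ler (-2.75 ± 0.23). MSRB5 was thus high in Col-0 and MSRB6 high in Ler. Whether probes of one cross-hybridise with the other was not tested.

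For nitrate, the nutrient held low here, 9 NPF and NRT transporter genes were tested, 2 higher in Col-0 and 5 higher in Ler (median -0.31). Without the first or the second Col-0 array 4 of the 9 passed in place of 7. NRT2.5, the high-affinity nitrate transporter of nitrogen-starved roots, had 210.5, 225.2 and 298.2 in Col-0 and 41.1, 40.4 and 69.3 in Ler (1.99 ± 0.18, limma adjusted p = 2.26e-07). AT3G21670, which is NPF6.4, had 168.3, 146.9 and 157.6 against 486.8, 595.6 and 579.2 (-1.71 ± 0.15), and AT2G26690, NPF6.2, had a difference of -1.34 ± 0.18. The high-affinity gene was thus higher in Col-0 and these 2 members of the NPF6 branch were higher in Ler. The 2 CHX cation and proton exchanger genes tested went opposite ways. CHX16 had 560.9, 546.4 and 642.1 against 103.6, 90.6 and 149.4 (2.22 ± 0.14), and the weaker CHX19 was higher in Ler (-0.83 ± 0.17). Of 7 SWEET sugar transporter genes 3 were higher in Col-0, among them the vacuolar SWEET16 (0.89) and SWEET17 (0.58), and SWEET11, which loads sucrose into the phloem, was higher in Ler (-0.78 ± 0.19).

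In the cell wall, expansins loosen the wall of growing cells. Of 14 tested, 6 were higher in Col-0 and 4 in Ler (median 0.31). EXPA7 and EXPA18, the expansins of root hair cells, were both higher in Col-0. EXPA18 had 2106.6, 1826.2 and 2006.3 against 924.0, 655.5 and 835.5 (1.29 ± 0.10), and EXPA7 had means of 1709.3 ± 160.3 and 804.9 ± 68.6 (SD, n = 3; 1.07 ± 0.09). In a bulk sample, fewer cells of a type and less RNA per cell cannot be told apart. EXPB1 (1.80 ± 0.11) and EXLB1 (1.34 ± 0.12) were higher in Col-0 as well, while EXPA15 had 1688.7, 1851.1 and 1531.0 in Col-0 and 3720.7, 3914.0 and 3811.8 in Ler (-1.17 ± 0.09). Among 9 XTH genes, whose enzymes cut and join xyloglucan, XTH33 was higher in Col-0 (1.12 ± 0.14) and XTH32 in Ler (-1.66 ± 0.15). Of 7 subtilases, secreted serine proteases, 4 were higher in Ler and 2 in Col-0, and 3 of the 4 still tested passed with the weakest 50% of probe sets left out. SBT3.12 had 58.9, 55.1 and 44.4 in Col-0 and 443.7, 390.6 and 432.0 in Ler (-2.67 ± 0.13), and SBT4.12 had 3593.0, 3526.3 and 3731.0 against 930.8, 1239.2 and 1081.3 (1.73 ± 0.09). Other wall groups differed less, with 5 of 21 TBL wall acetylation genes higher in Col-0 and 2 higher in Ler, none of them 2-fold.

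Hormone and peptide genes held a few larger differences. GH3.1 and GH3.3, which attach amino acids to auxin, were both higher in Ler (-1.10 ± 0.13 and -1.13 ± 0.20), as was IAGLU, which attaches glucose to it (-0.94 ± 0.11). GH3.17, another conjugating enzyme, was higher in Col-0 (0.63). Of 14 auxin genes 3 were higher in Col-0, 4 in Ler and 7 did not pass. With the weakest 50% of probe sets left out 3 of the 6 still tested passed. ARR15 and RR16, type-A response regulators that cytokinin induces, were weak and both higher in Col-0, RR16 with 80.9, 86.9 and 106.3 against 30.5, 25.3 and 16.8 (1.43 ± 0.17). Neither was still tested with the weakest 50% left out. The peptide genes CLE44, whose product keeps vascular stem cells dividing, and RALFL33 were higher in Col-0 (1.32 ± 0.13 and 1.3 ± 0.08). RALFL33 had 1510.2, 1611.5 and 1574.6 against 645.3, 635.1 and 599.2. Of 9 RALFL and CLE genes 5 were higher in Col-0 and 3 in Ler, and 5 of the 9 passed in all without the first Col-0 or the first Ler array. Among transcription factors the MADS-box gene AGL19, a flowering activator, was higher in Col-0 (1.19 ± 0.10), as was FD, the partner of the florigen FT (1.02 ± 0.15). The bZIP genes bZIP58 (-1.45 ± 0.13) and HYH, a homologue of the light regulator HY5 (-1.10 ± 0.19), were higher in Ler.

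Heat shock and co-chaperone genes leaned to Ler, with 7 of 11 tested higher there and 1 higher in Col-0 (median -0.51). With the weakest 50% of probe sets left out 5 of the 8 still tested passed, 4 of them higher in Ler. HSA32, a heat stress protein, had 100.7, 69.4 and 96.0 in Col-0 and 194.6, 178.1 and 244.2 in Ler (-1.08 ± 0.18). ATHSP22.0, a small heat shock protein of the endoplasmic reticulum, was weak throughout, at 27.3, 24.2 and 5.5 against 92.3, 61.2 and 104.0 (-1.58 ± 0.25). ATJ1, a J-domain co-chaperone, had -1.05 ± 0.14, and the organising co-chaperones Hop1 and Hop2 had -0.29 and -0.56. Between the CLE3ox lines and clv1-15 (below), ATJ1 passed again in the same direction (-0.72). HSA32 (-0.28), ATHSP22.0 (0.41) and Hop2 (0.17) did not pass there. Subunits of the nuclear RNA polymerases leaned to Ler too, with 8 of 12 higher in Ler and 0 higher in Col-0 (median -0.31). Several of these 8 did not pass in the same direction in the second set of arrays (below). NRPB7, a subunit of RNA polymerase II, had 496.9, 466.5 and 461.9 against 1023.6, 1022.7 and 1085.1 (-1.11 ± 0.10).

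Genes of both organelles leaned to Col-0. Of 63 plastid-encoded probe sets tested 26 were higher in Col-0 and 9 in Ler (median 0.19). ccsA, needed to build cytochrome c, had 1706.9, 1634.7 and 1544.4 against 400.5, 423.6 and 300.7 (2.09 ± 0.12), and psbK of photosystem II had 2318.3, 2007.0 and 1211.2 against 615.5, 469.5 and 663.5 (1.60 ± 0.19). A pair of plastid-encoded genes were at least 2-fold higher in Ler, rps4 of the plastid ribosome (-1.09 ± 0.08) and rpoA of the plastid RNA polymerase. rpoA had 847.9, 705.5 and 748.8 in Col-0 and 3064.7, 1535.7 and 3238.2 in Ler (-1.68 ± 0.25). The wide spread of rpoA within Ler did not reach the Col-0 arrays. Of 18 mitochondrion-encoded probe sets 11 were higher in Col-0 and 0 in Ler (median 0.40). With each array's values quantile-normalised 10 were higher in Col-0 and 1 in Ler, and without the second Ler array 7 passed in all. With the weakest 50% of probe sets left out only 5 of the 18 were still tested, and 2 of these passed. The largest were at a probe set of nad1, a subunit of complex I (106.1, 131.7 and 110.8 against 28.9, 19.7 and 30.9; 1.64 ± 0.16), and at matR, a maturase (1.37 ± 0.15). Other probe sets of nad1 had differences of 0.12 to 0.84. The Col-0 genome holds a large copy of mitochondrial DNA on chromosome 2, and transcripts of that copy cannot be told apart from those of the organelle.

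Groups near or below the 45.3% of all probe sets included exocyst, SEC and VPS genes of vesicle traffic, with 1 of 20 higher in Col-0 and 3 in Ler, WRKY factors, with 1 of 5 higher in Col-0 and 0 in Ler, and receptor kinase and immune receptor genes, with 3 of 14 higher on each side (2 of 7 still tested passed with the weakest 50% left out). Cold and LEA genes had 1 of 7 higher in Col-0 and 0 in Ler, or 1 on each side with arrays centred on their medians or quantile-normalised.

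**Figure D3:**
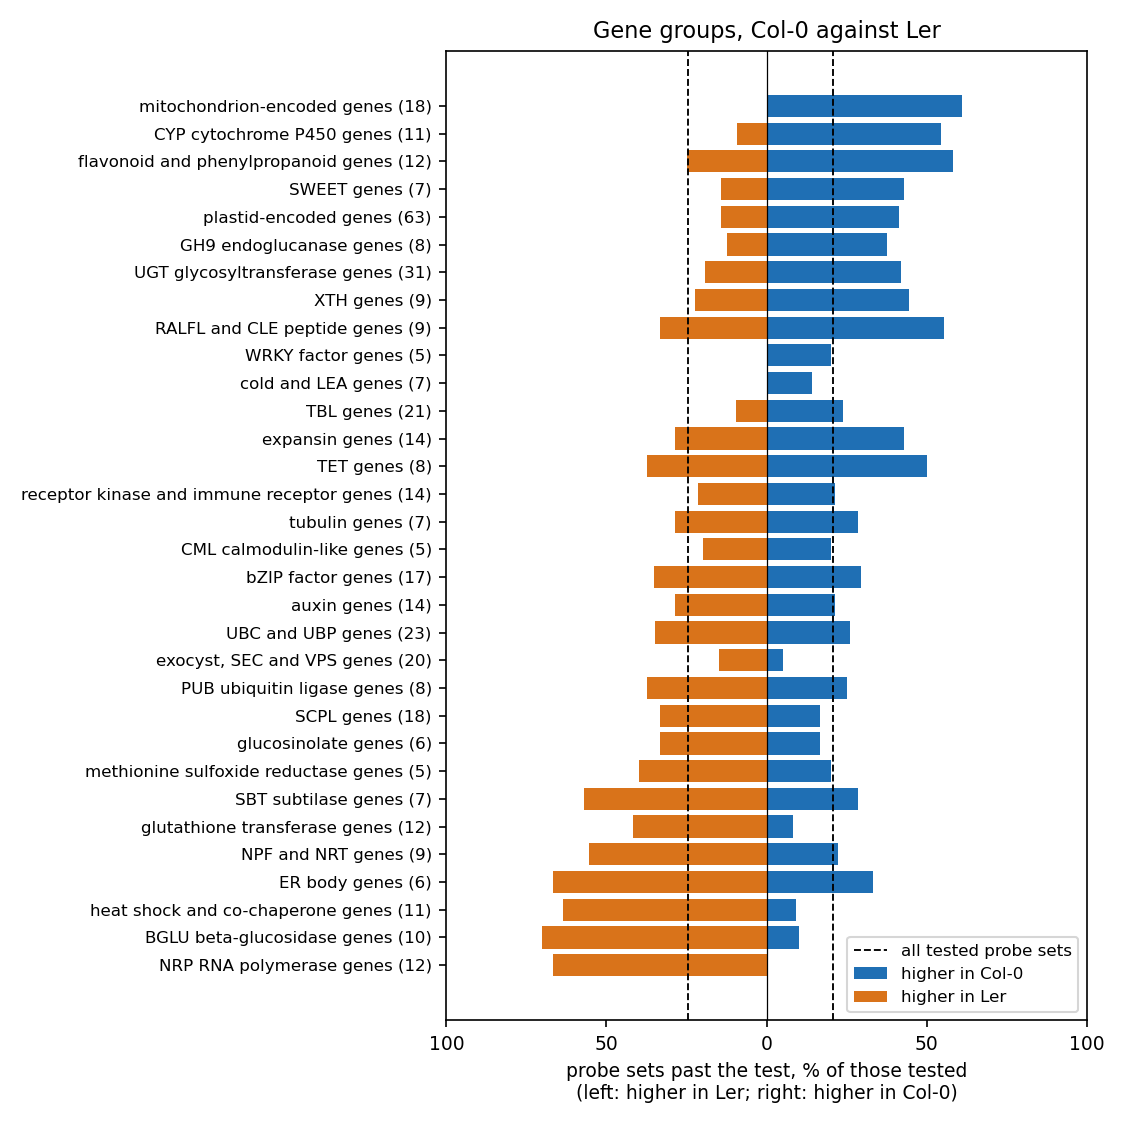
Share of the tested probe sets of each gene group (number tested in brackets) that passed the test and were higher in Col-0 (right, blue) or in Ler (left, orange), for the groups reported here with at least 5 tested. Dashed lines mark the 20.9% and 24.4% of all tested probe sets; mitochondrion-encoded genes had 11 of 18 to the right and 0 to the left, and RNA polymerase genes 8 of 12 to the left and 0 to the right.

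The larger differences were spread over all 5 chromosomes. Among single-gene probe sets, those at least 2-fold apart made up 6.59% on chromosome 1, 6.69% on chromosome 2, 5.62% on chromosome 3, 7.91% on chromosome 4 and 6.51% on chromosome 5. In 168 windows of 50 consecutive measured genes the median number was 3 and the range 0 to 11, with none in 11 windows and at least 8 in 7. The densest window, from AT1G23440 to AT1G25400, held 9 genes higher in Col-0 and 2 higher in Ler. Of the 54 single-gene probe sets at least 8-fold apart, 47 were higher in Col-0 and 7 in Ler. Another lay within 5 genes of 11 of them, and these 11 were among the 47. They were AT1G26240 with AT1G26250, the 3 berberine bridge enzyme-like genes, CYP71B26 with CYP71B37, AT3G32030 with AT3G32040, and AT5G54020 with AT5G54040. Whether the shared-type probe set of AT3G32030 also reads AT3G32040 was not tested.

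**Figure D4:**
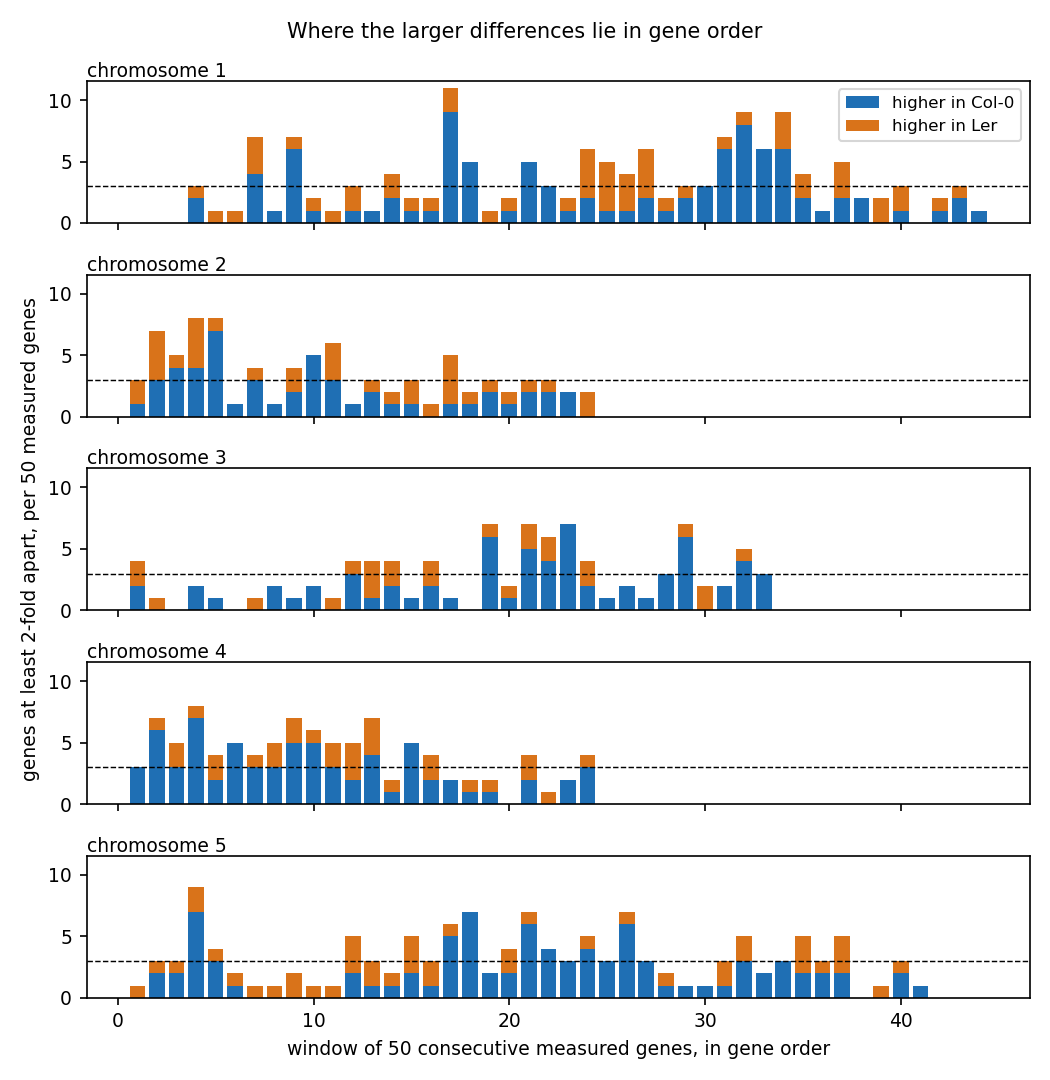
Number of genes past the test and at least 2-fold apart in each window of 50 consecutive measured genes, in gene order along the 5 chromosomes, with blue for higher in Col-0 and orange for higher in Ler. The dashed line marks the median of 3 per window; the tallest bar, with 11 genes, is on chromosome 1.

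Direct neighbours could go either way. Of 2997 pairs of adjacent measured genes, both members passed in the same direction in 342 and in opposite directions in 268. These counts are to be read against the 45.3% of all tested probe sets that passed, 20.9% higher in Col-0 and 24.4% higher in Ler. Whether neighbours differ from other pairs of genes was not tested. At 2-fold or more for both members there were 18 pairs in one direction and 8 in opposite directions. Of all tested probe sets, 4.36% were at least 2-fold higher in Col-0 and 2.42% in Ler. Whether these pairs exceed what such shares give was not tested. Beside MSRB5 and MSRB6 the opposite pairs included AT4G33730 and AT4G33720. AT4G33730 had 1358.9, 1143.9 and 1350.6 in Col-0 and 479.3, 358.6 and 397.2 in Ler (1.61 ± 0.11), while its neighbour had at most 49.7 in Col-0. AT5G24230 (1.38) lay beside AT5G24240 (-3.62), AT4G01860 (1.51) beside AT4G01870 (-1.36), AT1G24420 (1.36) beside AT1G24430 (-1.23), and AGL19 (1.19) beside AT4G22960 (-1.53). Runs of adjacent genes in one direction were short: the longest, from AT3G57000 to AT3G57030, had 4 genes higher in Ler, and 26 runs had 3. Of the run of 4, AT3G57020 was the strongest member (-1.37 ± 0.12), and AT3G57030 (-0.19) lost its call without 5 of the 6 arrays in turn and with the wild types fitted alone (highest adjusted p = 0.15), which leaves 3.

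The other 7 arrays offer the same backgrounds in separate samples. The mean of the CLE3ox lines, in Col-0, was set against clv1-15, in Ler, in a fit of its own that shares no array with the wild types. Background, transgene and mutation cannot be told apart in that comparison, so it shows which wild-type differences were seen again and not what caused any of them. As clv1-15 is in Ler, transcript level and probe binding cannot be told apart there either. In that comparison 5705 probe sets passed (35.8%), 2945 higher in the CLE3ox lines (18.5%) and 2760 higher in clv1-15 (17.3%). With each array centred on its median the split was 2499 to 3442. Of the 7214 wild-type differences 3750 passed again in the same direction, 52.0% of them and 65.7% of the second comparison's, and 174 (2.4%) passed in the opposite direction. Of larger differences, 952 of 1080 of at least 2-fold (88.1%) passed again in the same direction and 22 (2.0%) in the opposite one. The share was 90.5% of the 694 higher in Col-0 and 83.9% of the 386 higher in Ler. All 80 differences of at least 8-fold and all 21 genes under 50 in one wild type and at least 500 in the other passed again in the same direction.

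The leading genes of the wild-type comparison had the same direction in these arrays, apart from ATC. AT5G23830 had a difference of 7.04 between the CLE3ox lines and clv1-15, AOP3 had -4.45, TPS-CIN 4.06, CYP71B37 3.53, MSRB5 1.97, MSRB6 -2.47, CHX16 2.55 and SBT4.12 1.73. NRT2.5 had 1.41. The difference between the comparisons was itself tested in a fit of all 13 arrays, and 1785 probe sets (11.2%) passed. ATC had -2.81 between the wild types and 0.86 between the CLE3ox lines and clv1-15 (difference -3.68, limma adjusted p = 6.32e-08). The small heat shock protein gene AT1G53540 changed sides as well, from -2.09 to 1.79, and so did the hydrolase-like gene AT3G15650, from -1.51 to 1.84. The berberine bridge enzyme-like genes kept their direction at a smaller size, AT1G26380 with 6.01 and 4.27 and AT1G26410 with 4.73 and 3.23. EXPA18 had 1.29 and 0.34, and EXLB1 had 1.34 and 0.09. Of the RNA polymerase genes higher in Ler, NRPB7 (-1.06), NRPB9A (-0.89) and NRPB9B (-0.65) passed again in the same direction. NRPB12 (-0.04), NRPB6A (-0.19), NRPE7 (0.12) and NRPA2 (0.16) did not pass in the CLE3ox lines against clv1-15. NRPC2 passed there in the opposite direction (0.54).

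**Figure D5:**
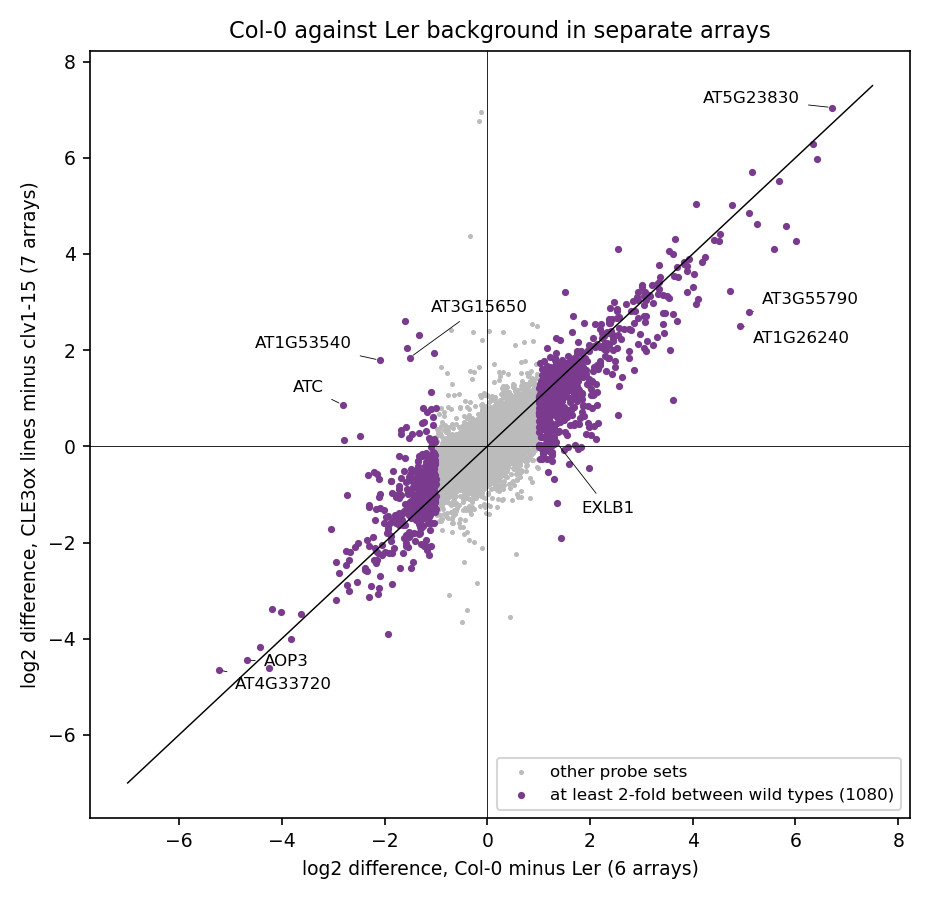
Log2 difference of each tested probe set between the wild types (x axis, 6 arrays) and between the CLE3ox lines and clv1-15 (y axis, 7 other arrays), with the 1080 probe sets at least 2-fold apart between the wild types in purple. Most purple points lie along the line of equal differences; ATC, AT1G53540 and AT3G15650 lie on opposite sides of 0 on the 2 axes.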

How the data were processed

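The authors deposited 1 table of linear intensity values (MAS5 signal per the submitters' processing notes, no version given) for 22810 probe sets on 13 arrays. The mean after trimming 2% from both tails was 500 for each of them, so the values were scaled per array before deposit. No detection calls or raw scans were used here. The number of arrays limits the precision. The table holds 0 columns without a sample and 0 pairs of identical arrays.

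Signals were converted to log2(signal + 16). Controls (64) and the 30% of the remaining probe sets with the lowest mean were dropped, leaving 15922. All 13 arrays entered 1 linear model of 5 groups (limma 3.58.1, R 4.3.3), so that they share 1 estimate of spread (8 residual degrees of freedom), with a trended eBayes prior. P-values were adjusted by Benjamini-Hochberg across the 15922 probe sets. Errors are SE for differences and SD for signals. P-values measure the spread between these arrays. The fit was tested on simulated data for Col-0 against Ler on 15922 probe sets. Of 50 changed by a log2 of 0.5 it recovered 46%, and of 50 changed by 1 it recovered 98%. Few probe sets were changed in the simulation and the others had equal means in all groups, whereas 45.3% passed in the data. The shares recovered therefore do not carry over to this comparison.

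Genes were named through the probe table of the platform and the RefSeq TAIR10.1 annotation, which gave older names and gene order. Of the probe sets 13513 had 1 gene, 503 several and 8730 none, and 13436 of the first matched the annotation. No sequences are printed. The comparison and the gene groups were chosen with earlier results of these data known, and the text supports nothing with them. Of 30 groups first written down, most had few or no named probe sets. For example, NLR receptors had 1 tested (1 higher in Col-0), class III peroxidases 5 (2 higher in Col-0, 1 in Ler) and extensins, proline-rich and arabinogalactan proteins 6 (2 and 2). They were replaced by 37 groups defined on symbols and older names after the leading genes had been seen. The counts of 1 of these groups are not reported here. Named genes are the 12 highest and 12 lowest among single-gene probe sets past the test with no overlap of arrays, up to 4 per group, the genes under 50 in one wild type and at least 500 in the other, opposite neighbours, the 3 longest runs and genes of opposite direction in the CLE3ox lines against clv1-15. Others named as group members were picked after their values were seen. Arrays of the same replicate number deviated together at r = 0.041, -0.115 and -0.036, so the numbers do not pair the arrays. Alternatives were other pseudocounts, filters, scalings and variance priors, array weights, the wild types alone with and without a replicate block, and leaving out each array. Leaving out arrays in the repeat count for the CLE3ox lines against clv1-15 was added after the data were seen.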

Additional observations from a re-analysis of the deposited data

Results flagged for a closer look

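The difference between accessions was tested against the difference between the CLE3ox lines and clv1-15, and 41 of 175 named genes passed (limma, adjusted over all probe sets). Of all 15922 probe sets 1785 (11.2%) passed the same test. Many of the 175 were named for a large wild-type difference, and some for opposite directions in the comparisons. The counts below are therefore descriptions. Values below are the first difference minus the second, in log2. The comparison of the CLE3ox lines with clv1-15 holds the transgene and the mutation as well as the backgrounds, and which of them moves with a gene was not tested.

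At 12 genes the differences had opposite signs. Those higher in Ler than in Col-0 were AT1G53540 (-3.88), ATC (-3.68), AT3G15650 (-3.35), SWEET11 (-2.30), AT2G04050 (-2.06), rpoA (-2.02), ATHSP22.0 (-1.99), Hop2 (-0.73), GSTL3 (-0.62) and AT3G57000 (-0.39). Higher in Col-0 than in Ler were SWEET16 (1.04) and AT4G37220 (1.57). Of the 12, ATC, AT1G53540, AT3G15650, AT2G04050 and AT4G37220 had been named because they passed in opposite directions. At some of the 12 the CLE3ox lines did not differ from clv1-15 past the test, so that only the sign was opposite. These were GSTL3 (0.07 between the CLE3ox lines and clv1-15), AT3G57000 (0.085), SWEET16 (-0.15), Hop2 (0.17), rpoA (0.35) and ATHSP22.0 (0.41).

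At 14 genes higher in Col-0 the wild-type difference was the larger one: TBL25 (0.42), AGL19 (0.47), AT5G24230 (0.51), PUB24 (0.53), AT2G46140 (0.60), GH9C1 (0.69), EXPA18 (0.95), AT4G33730 (1.17), AT1G26390 (1.25), EXLB1 (1.25), AT1G26410 (1.49), AT1G26380 (1.74), AT3G55790 (2.31) and AT1G26240 (2.42). The same held at 10 genes higher in Ler: AT1G20380 (-1.72), scpl31 (-0.83), HSA32 (-0.81), AT1G70080 (-0.81), AT4G01870 (-0.76), ZIP9 (-0.74), UGT78D2 (-0.66), NRPB12 (-0.62), TUB7 (-0.51) and RALFL31 (-0.41). Naming genes by a large wild-type difference in itself favours a wild-type difference that is the larger one. At 5 genes the wild-type difference was the smaller one. They were AT4G11210 (-0.97) and AT2G25450 (-0.56), higher in Col-0, and ATSBT5.2 (0.86), SCPL32 (0.94) and bZIP58 (0.95), higher in Ler.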

How the results depend on the processing

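The count of probe sets past the test stayed between 5360 and 7764 over 17 alternatives, against 7214. Leaving out 1 array gave 6054 to 6543 in all, 2853 to 3103 higher in Col-0, 3201 to 3480 higher in Ler and 1084 to 1121 of at least 2-fold. A group left with 2 arrays was assumed to vary like the others. With the lowest 50% left out, 584 were at least 2-fold apart in place of 1080, and there only 11373 probe sets were tested. No filter gave 1354 and a pseudocount of 64 gave 761. The wild types fitted alone gave 7155 calls and 6979 with a replicate block, of which 6685 were among the 7214 in the same direction. The count seen again in the CLE3ox lines against clv1-15 was 2727 to 3887, and 3145 to 3594 when 1 array was left out. Of 175 named genes 154 kept their call in every alternative that tested them and 21 lost it in at least 1, the largest of these at a log2 size of 1.18 (PUB19), with 0 changes of sign. Group counts stayed within 1.5 times in 597 of 629 cases. For weak signals the floor of the array limits how large a difference can be read.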
